A study of Mus musculus with 12 samples.

Results

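Il4i1, Irf4, Tmem26 and Hebp2 are 4 of the 14098 genes measured by RNA-seq in mouse bone marrow-derived macrophages (BMDM), and they were chosen by their measured values. RNA levels of each were higher in the stiff matrix than in the soft matrix in WT cells and again in Camkk2-/- cells (KO), where only 5 genes passed the same criteria. A gene is called here where its adjusted p was under 0.05 and its log2 difference was 1 or more in size. Because the stiff and soft libraries picked the 4 genes, their rise over soft, in stiff or with IL-4, is described without a test. The open question was how large the rise in stiff was beside the rise under IL-4 in the same genotype.

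BMDM were grown for the study from marrow of male and female C57Bl/6 mice aged 8 to 10 weeks, either WT (Camkk2+/+) or Camkk2-/-, with medium conditioned by L929 cells. All 6 groups were embedded in a hydrogel of collagen and hyaluronic acid. The stiff gels were crosslinked with UV light and a photoinitiator at 24 h after embedding, and the cells then stayed in culture for 48 h before the gels were digested with collagenase IV (400 U/mL). The groups are WT soft, WT soft+IL-4, WT stiff, KO soft, KO soft+IL-4 and KO stiff, with 2 libraries, from 2 biological replicates, in each. The labels give no IL-4 dose and no stiff group with IL-4, and UV light, the photoinitiator and the amount of collagen, which the methods give as higher in the stiff gel, cannot be told apart from stiffness. Camkk2-/- is a deletion in the whole animal, and nothing in the labels says whether marrow of several mice was pooled. Values are TPM (transcript abundance, with reads divided by gene length and scaled to the same total in every library), so levels may be compared between genes, while the number of reads behind each value is unknown. In bulk RNA, fewer cells of a type and less RNA per cell cannot be told apart.

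IL-4 binds a receptor on macrophages whose Janus kinases phosphorylate STAT6, which enters the nucleus and turns on the genes of alternative (M2) activation. Irf4 codes for a transcription factor that pairs with PU.1 and other partners and takes part in that programme. Il4i1 codes for a secreted oxidase of aromatic amino acids, first known as an IL-4-induced gene, whose activity restrains T cells. Hebp2 codes for a heme-binding protein of the SOUL family. Tmem26 codes for a transmembrane protein best known as a surface marker of beige fat cells.

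All 4 are protein-coding genes. On GRCm38 with the GENCODE vM21 annotation, Il4i1 spans chr7:44816387-44840809 on the plus strand, Irf4 chr13:30749226-30766976 on the plus strand, Tmem26 chr10:68723646-68782650 on the plus strand and Hebp2 chr10:18539498-18546076 on the minus strand. Irf4, Tmem26 and Hebp2 share no exonic base with another gene. Of the 4080 exonic bases of Il4i1, 97 (2.38%) are shared with Nup62 on the same strand, 3423 (83.9%) with Tbc1d17 on the opposite strand and 82 (2.01%) with Atf5 on the opposite strand. The libraries keep strand, but whether the strand was used in making the TPM values is not given in the sources used here, so the Il4i1 level is uncertain to that extent. Mean TPM of Tbc1d17, the gene with the largest overlap, stayed between 36.0 and 42.1 over the 6 groups. Nup62 had means of 39.8, 81.4 and 71.9 TPM in WT soft, stiff and soft+IL-4 and of 40.5, 46.8 and 68.6 TPM in the same KO groups. It was thus higher than in soft with IL-4 in both genotypes and in WT stiff, and by less in KO stiff. The KO stiff libraries held 49.1 and 44.6 TPM against 39.8 and 41.3 TPM in KO soft, a log2 difference of 0.20 that was not called. Atf5 had 28.6, 101 and 59.0 TPM in WT and 33.7, 31.7 and 55.2 TPM in KO. The part of shared reads in the Il4i1 values was not tested.

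The promoter windows are shown because the 4 genes move together with IL-4, whose factor STAT6 binds sites of known form. Each runs from 250 bases before to 50 bases after the RefSeq start (GRCm38.p6), 5′ to 3′ on the strand of the gene. Capitals mark matches to TTCNNNNGAA, a STAT6 site with a spacer of 4, and to GAGGAA, the core that PU.1 binds, on either strand.
Tmem26 (chr10:68723496-68723795, plus strand): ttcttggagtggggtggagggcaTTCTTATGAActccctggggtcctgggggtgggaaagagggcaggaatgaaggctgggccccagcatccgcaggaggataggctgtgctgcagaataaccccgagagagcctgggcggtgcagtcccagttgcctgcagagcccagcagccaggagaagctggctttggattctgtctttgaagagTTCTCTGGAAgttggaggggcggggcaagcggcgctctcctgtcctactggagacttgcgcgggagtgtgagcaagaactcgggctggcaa
Hebp2 (chr10:18546027-18546326, minus strand): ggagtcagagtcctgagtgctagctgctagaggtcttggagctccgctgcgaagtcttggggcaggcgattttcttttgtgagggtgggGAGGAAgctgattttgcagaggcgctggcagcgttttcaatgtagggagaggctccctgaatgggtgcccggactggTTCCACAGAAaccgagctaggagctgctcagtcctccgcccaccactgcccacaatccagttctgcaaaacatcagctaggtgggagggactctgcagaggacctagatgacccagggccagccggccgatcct
Il4i1 (chr7:44836038-44836337, plus strand): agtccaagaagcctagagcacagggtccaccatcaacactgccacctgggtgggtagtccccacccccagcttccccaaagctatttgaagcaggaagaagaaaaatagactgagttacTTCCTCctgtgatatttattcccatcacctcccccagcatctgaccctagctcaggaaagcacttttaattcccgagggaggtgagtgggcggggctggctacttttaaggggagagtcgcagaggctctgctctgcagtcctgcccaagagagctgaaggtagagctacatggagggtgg
Irf4 (chr13:30748983-30749282, plus strand): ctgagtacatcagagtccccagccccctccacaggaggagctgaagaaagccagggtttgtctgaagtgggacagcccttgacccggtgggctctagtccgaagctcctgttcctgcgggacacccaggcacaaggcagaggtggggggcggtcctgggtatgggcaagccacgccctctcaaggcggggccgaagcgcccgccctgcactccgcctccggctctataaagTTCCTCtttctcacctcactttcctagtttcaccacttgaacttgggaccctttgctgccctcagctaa

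The STAT6 form was found at -227 and -41 from the start of Tmem26 and at -84 from that of Hebp2, and 6.95% of all 32851 promoter windows of this length hold it. The PU.1 core was found in Hebp2 at -161, Il4i1 at -131 and Irf4 at -19, and 28.3% of all windows hold it. None of the 4 windows held TTCNNNGAA (8.30% of all windows), the tandem form GAAANNGAAA (3.44%) or the composite form GGAANNGAAA (2.72%), to which IRF factors bind, or the AP-1 form TGANTCA (7.81%). The forms TTCNNNNGAA and TTCNNNGAA cannot share a match, and no searched match in the 4 windows overlapped another. A match is a run of letters and not a measured binding site. The Il4i1 window surrounds the RefSeq start, which lies inside the gene as GENCODE draws it.

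Several libraries stood apart from their label or from the other library of their group. Camkk2, the deleted gene (chr5:122731170-122779409), went against the label in 3 of the 12 libraries: the library labelled WT soft 2 held 11.7 TPM against 44.2 TPM in WT soft 1, and the libraries labelled KO soft 1 and KO stiff 1 held 46.6 and 37.7 TPM against 11.5 and 10.0 TPM in KO soft 2 and KO stiff 2. The nearest pairs of libraries over 6922 genes with a mean of at least 10 TPM crossed groups. The SD of the log2 difference was 0.134 between KO soft 2 and WT soft 2 and 0.147 between WT soft+IL-4 2 and WT stiff 2, whereas the 2 libraries of a group differed with an SD of 0.228 to 0.587, and WT stiff 1 and 2 had the largest of these. Libraries numbered 1 had 10.7 to 13.4% of genes at 0 and those numbered 2 had 5.90 to 7.54%. The macrophage markers gave a summed 23571 to 57980 TPM, most of it Lyz2, with all 8 markers present. This sum differed by group. In WT it was 51475 to 54862 TPM in soft, 23619 to 24708 TPM in stiff and 25081.7 to 25556.5 TPM in soft+IL-4. In KO it was 52143 to 57980 TPM in soft, 45977 to 48589 TPM in stiff and 23571 to 23922 TPM in soft+IL-4. The part of this difference in the levels of the 4 genes was not tested. Summed markers reached at most 0.992 TPM for T cells, 1.97 TPM for mast cells and basophils, 1.80 TPM for eosinophils and 0.689 TPM for stromal cells, and 9.61 to 24.9 TPM for neutrophils. Of 7 B and plasma cell markers, 5 stayed below 1 TPM everywhere, and Sdc1 made up nearly all of the rest.

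Il4i1 was the most abundant of the 4 genes in every library. It held 18.1 and 18.2 TPM in WT soft, 232 and 304 TPM in WT stiff and 298 and 280 TPM in WT soft+IL-4. In KO cells it held 19.8 and 17.1 TPM in soft, 85.9 and 99.7 TPM in stiff and 382 and 374 TPM in soft+IL-4. The soft libraries of both genotypes overlapped, WT stiff overlapped WT soft+IL-4, and KO stiff lay between, apart from every other group.

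Irf4 held 4.60 and 3.99 TPM in WT soft, 24.2 and 29.4 TPM in WT stiff and 27.6 and 30.2 TPM in WT soft+IL-4. In KO cells the transcription factor held 4.23 and 4.00 TPM in soft, 10.2 and 10.5 TPM in stiff and 31.8 and 31.7 TPM in soft+IL-4. As for Il4i1, the soft libraries of both genotypes overlapped, WT stiff overlapped WT soft+IL-4 and KO stiff lay between, and the 2 KO libraries of each condition lay close together.

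Tmem26 held 3.25 and 2.43 TPM in WT soft, 71.4 and 49.4 TPM in WT stiff and 50.3 and 53.1 TPM in WT soft+IL-4. In KO cells it held 3.57 and 2.56 TPM in soft, 14.2 and 13.5 TPM in stiff and 46.4 and 47.3 TPM in soft+IL-4. Tmem26 was the only one of the 4 whose highest value came from a stiff library (WT stiff 1), and the other WT stiff library fell below both WT soft+IL-4 libraries. It was below Irf4 in every soft library and above it in every stiff and soft+IL-4 library.

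Hebp2 was the least abundant. It held 0.744 and 0.561 TPM in WT soft, 8.06 and 10.5 TPM in WT stiff and 13.9 and 12.3 TPM in WT soft+IL-4. In KO cells it held 0.307 and 0.428 TPM in soft, 2.94 and 2.42 TPM in stiff and 10.2 and 9.47 TPM in soft+IL-4. Both WT soft values were above both KO soft values. That order was not tested, no share over all genes was measured for it, and WT soft 2 and KO soft 1 go against their Camkk2 label. Both WT stiff libraries were below both WT soft+IL-4 libraries, and 29.3% of all genes tested did not overlap in that comparison, in either direction. All 4 soft values were under the 1 TPM that the filter on low values asks for, and the gene passed that filter through the groups in which it is high. All 4 genes passed it, as did 11194 genes in all.

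**Figure D1:**
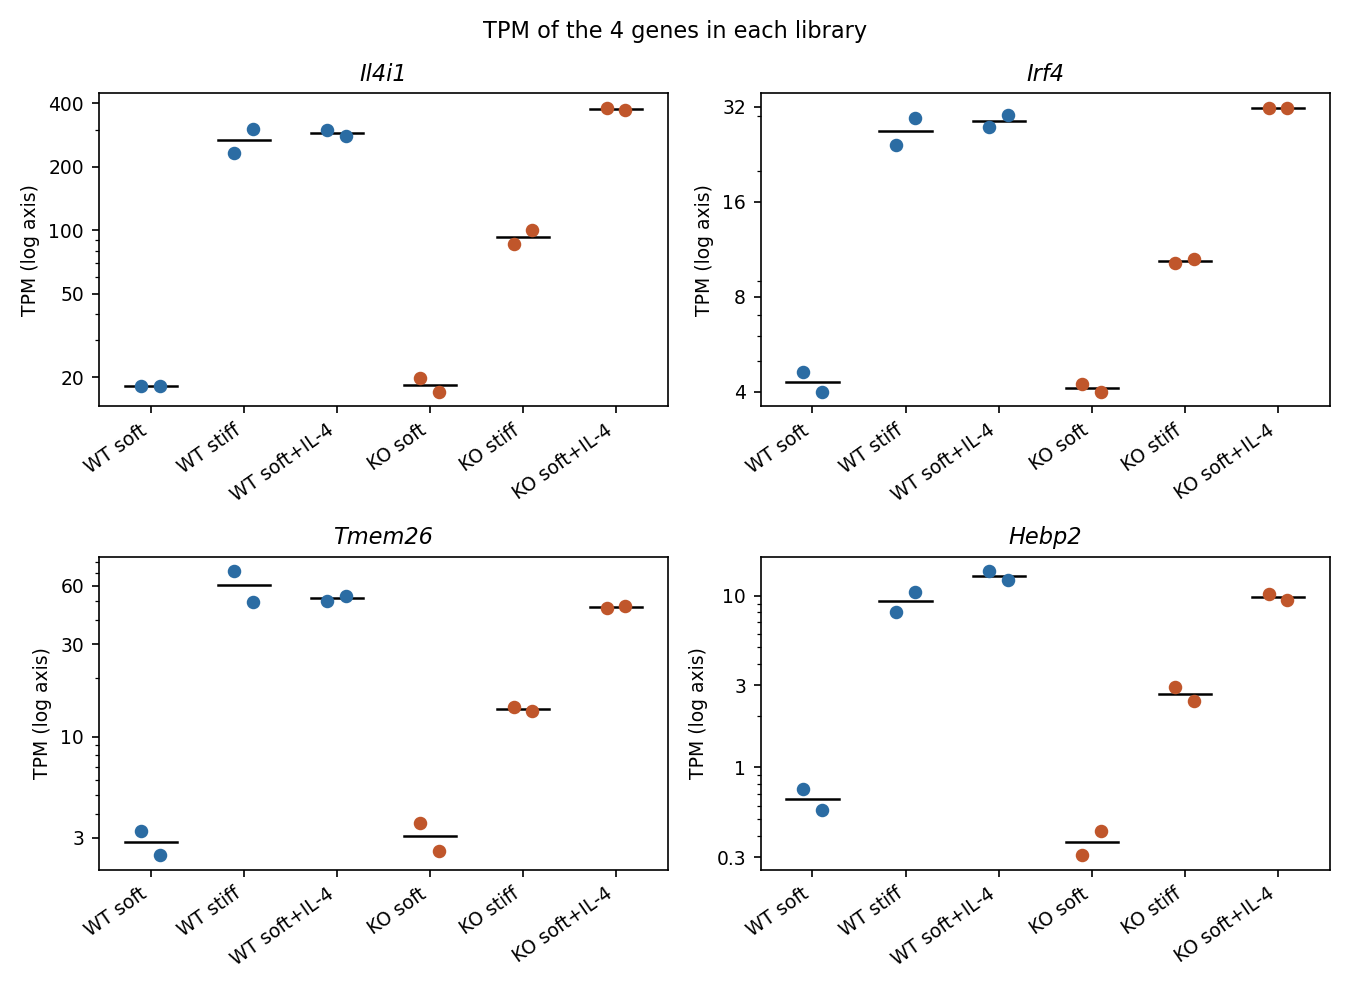
TPM of Il4i1, Irf4, Tmem26 and Hebp2 in each of the 12 libraries, on log axes with a range of their own in each panel. Points are libraries (number 1 on the left), blue for WT and orange for KO, and bars are the means of the 2 libraries. KO stiff lies between the soft and the soft+IL-4 groups for all 4 genes.

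Within KO stiff the 4 genes were alike in both libraries where Camkk2 was not. The libraries labelled KO stiff 1 and KO stiff 2 differed 37.7 to 10.0 TPM in Camkk2, and 85.9 to 99.7 TPM in Il4i1, 10.2 to 10.5 TPM in Irf4, 14.2 to 13.5 TPM in Tmem26 and 2.94 to 2.42 TPM in Hebp2. The sum of 5 dendritic cell markers was higher than in soft in WT stiff and with IL-4 in both genotypes, but not in KO stiff. It was 3.86 to 4.94 TPM in WT soft, 12.02 to 12.6 TPM in WT soft+IL-4 and 12.2 to 20.1 TPM in WT stiff. In KO soft, soft+IL-4 and stiff it was 5.43 to 8.34, 9.54 to 11.1 and 7.25 to 8.28 TPM, and KO soft and KO stiff overlapped. Ccr7 reached 19.1 TPM and was the largest of them, and 1 of the 5 stayed below 1 TPM everywhere. In WT stiff and with IL-4 most of the sum was Ccr7, at 9.31 to 19.1 TPM in WT stiff, so the sum mainly followed this gene. The mean of Ccr7 alone was 2.64, 9.22 and 14.2 TPM in WT soft, soft+IL-4 and stiff. In the same KO groups the mean was 4.09, 7.34 and 5.13 TPM. The part of these markers in the levels of the 4 genes was not tested.

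The stiff matrix raised the 4 genes by the definition of the set, so these sizes are a description. On the log2(TPM + 1) scale, which understates the change of low genes, Il4i1 was higher in WT stiff than in WT soft by 3.80 (SE 0.13), Irf4 by 2.39 (SE 0.13), Tmem26 by 3.98 (SE 0.19) and Hebp2 by 2.63 (SE 0.18). In KO cells the differences were 2.27, 1.15, 1.88 and 1.43, with the same SEs. In ratios of mean TPM these were 14.8-fold, 6.23-fold, 21.2-fold and 14.2-fold in WT and 5.04-fold, 2.52-fold, 4.51-fold and 7.29-fold in KO. Of the 11194 genes tested, 1.73% were called higher in WT stiff and 0.0447%, or 5 genes, in KO stiff. The fifth was Tfrc, the transferrin receptor, which is not among the 4 and was higher by 2.68 in WT and 1.22 in KO. With any 1 of the KO soft or KO stiff libraries left out, 1 to 2 genes were called in KO stiff, and without the 3 libraries against their Camkk2 label limma called 0 (70 at an unadjusted p under 0.05).

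Just outside the criteria in KO were Mgl2 (2.48), Pdcd1lg2 (1.75), Flt1 (1.46) and Ptgs1 (1.23), each with a log2 difference as large as that of a gene in the set but an adjusted p above the threshold.

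Il4i1, Tmem26 and Irf4 rose with IL-4 in both genotypes, and Hebp2 was higher in every IL-4 library. This comparison uses the same soft libraries as the choice of the genes, so the sizes are given as a description. On the log2 scale Il4i1 was higher in WT soft+IL-4 than in WT soft by 3.92, Tmem26 by 3.79 and Irf4 by 2.50. In KO cells the differences were 4.29 for Il4i1, 3.57 for Tmem26 and 2.68 for Irf4. Hebp2 was higher by 3.09 in WT and 2.99 in KO, and it passed the filter on low values only through the groups in which it is high. Mean TPM rose 15.9-fold for Il4i1, 18.2-fold for Tmem26, 20.1-fold for Hebp2 and 6.72-fold for Irf4 in WT, and 20.5-fold, 15.3-fold, 26.8-fold and 7.71-fold in KO. Of all genes tested, limma with Benjamini-Hochberg adjustment called 1.59% higher with IL-4 in WT and 1.56% in KO.

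**Figure D2:**
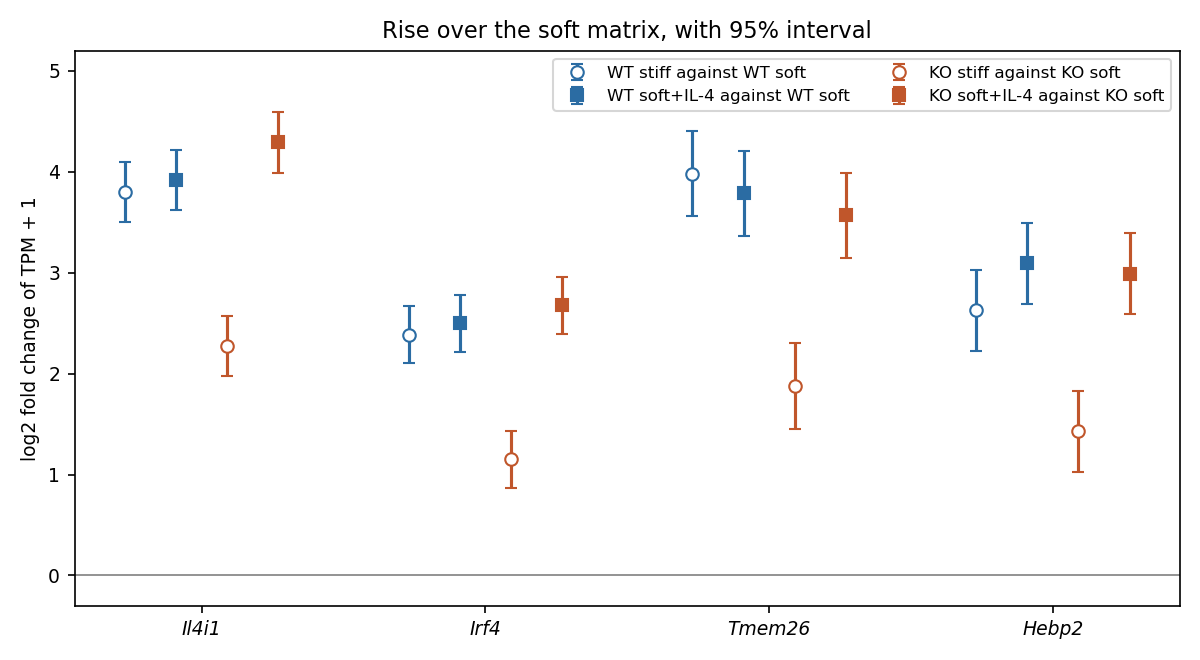
Differences from the soft matrix on the log2(TPM + 1) scale for the 4 genes, with 95% intervals from the model over all 12 libraries. Circles are the stiff matrix, squares the soft matrix with IL-4, blue WT and orange KO. The KO stiff rises, 1.15 to 2.27, are the lowest of the 4 values of each gene.

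The size of the rise was then compared directly, stiff against soft+IL-4, which leaves the soft libraries out but keeps the stiff libraries that the choice used. Hebp2 was above 1 TPM in every stiff and soft+IL-4 library, so here it is tested too. In WT cells the 2 conditions were not told apart. Il4i1 differed by -0.12 (95% interval -0.42 to 0.18), Irf4 by -0.11 (-0.39 to 0.17) and Tmem26 by 0.20 (-0.23 to 0.62), with limma adjusted p = 0.717, 0.721 and 0.675. Hebp2 was lower in both stiff libraries, by -0.46 (-0.86 to -0.06), with limma adjusted p = 0.590. None of the 4, and 0% of all genes, were called by limma in either direction, while 557 genes had an unadjusted p under 0.05. These intervals include differences as large as 0.62 on the log2 scale for Tmem26, so equal levels are not shown.

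WT stiff 2, the library nearest to WT soft+IL-4 2, bears on this comparison. With WT stiff 1 alone the differences from WT soft+IL-4 were -0.31 for Il4i1, -0.25 for Irf4, 0.46 for Tmem26 and -0.64 for Hebp2, and 955 genes were called, none of them among the 4. Hebp2 then had limma adjusted p = 0.0403 and was not called because its difference was under 1 in size. The lone stiff library is then assumed to vary like the other groups. With WT stiff 2 alone the differences were 0.07, 0.03, -0.06 and -0.29, and 0 genes were called by limma (95 at an unadjusted p under 0.05).

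In KO cells all 4 genes were lower in stiff than in soft+IL-4, without overlap of the libraries, which was also so for 57.6% of all genes in either direction. Il4i1 was lower by a log2 difference of -2.02 (95% interval -2.32 to -1.72, limma adjusted p = 0.000184), which is 4.07-fold in TPM. Hebp2 was at -1.56 (-1.96 to -1.16, limma adjusted p = 0.00172), Tmem26 at -1.69 (-2.11 to -1.27, limma adjusted p = 0.00160) and Irf4 at -1.53 (-1.81 to -1.24, limma adjusted p = 0.000430), or 3.67-fold, 3.39-fold and 3.06-fold in TPM. All 4 were called, against 0.491% of genes called lower. Of the 134 genes called higher with IL-4 in both genotypes, the 4 included, 134 were lower in KO stiff and 51 were called lower. Without the 3 libraries against their Camkk2 label, Il4i1 alone was called (limma adjusted p = 0.0392), and Irf4, Tmem26 and Hebp2 had limma adjusted p = 0.0541, 0.0697 and 0.0704 with KO stiff and both soft groups at 1 library each.

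The genotypes were compared within IL-4, the one comparison in which no library had a part in choosing the genes. The KO and WT libraries did not overlap for any of the 4, nor for 38.9% of all genes tested. Il4i1 was higher in KO by 0.39 (95% interval 0.09 to 0.69) and Irf4 by 0.13 (-0.15 to 0.42), whereas Tmem26 was at -0.14 (-0.56 to 0.28) and Hebp2 at -0.38 (-0.78 to 0.02). Limma gave an adjusted p of 1 for each, and the smallest unadjusted limma p was 0.0169, for Il4i1. None of the 4 and 0% of all genes were called, with 233 genes at an unadjusted p under 0.05, and with only these 4 libraries in the model limma called 19 genes, none of the 4 (Il4i1 had an adjusted p = 0.0475, with the same difference of 0.39).

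The test of the difference between genotypes set KO stiff against KO soft+IL-4 beside the same comparison in WT. It was -1.90 for Il4i1 (95% interval -2.32 to -1.47, limma adjusted p = 0.00487), -1.89 for Tmem26 (-2.49 to -1.29, limma adjusted p = 0.0142) and -1.42 for Irf4 (-1.82 to -1.02, limma adjusted p = 0.00987). Hebp2, at -1.10 (-1.66 to -0.53), had limma adjusted p = 0.0966 and was not called. So 3 of the 4 genes were called lower, against 0.125% of genes tested and 14 of the 134 genes called higher with IL-4 in both genotypes. The stiff libraries of both genotypes had a part in choosing the genes, so these calls are not independent of that choice. Without the 3 libraries against their Camkk2 label none of the 4 was called, with differences of -1.79 for Il4i1, -1.92 for Tmem26, -1.39 for Irf4 and -1.20 for Hebp2. The call of Tmem26 was also lost on leaving out either library of KO soft+IL-4, KO stiff or WT soft+IL-4, with limma adjusted p of 0.0660 to 0.0810, and that of Irf4 on leaving out any of these but KO stiff 2, with 0.0503 to 0.0714. Hebp2 was called without WT stiff 1 (-1.27, limma adjusted p = 0.0265).

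**Figure D3:**
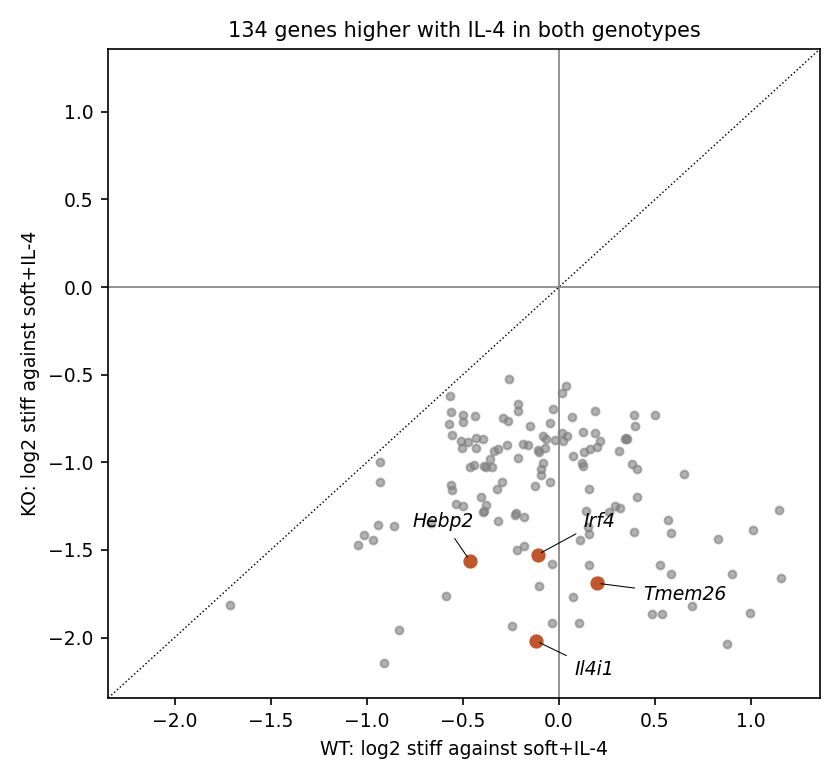
Log2 difference of stiff against soft+IL-4 in WT (horizontal) and KO (vertical) for the 134 genes called higher with IL-4 in both genotypes. Grey points are genes, orange points the 4 genes of the set, and the dotted line marks equal differences. The 4 genes lie at -2.02 to -1.53 in KO and at -0.46 to 0.20 in WT.

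The rise in stiff was also expressed as a percent of the rise with IL-4, in mean TPM above the soft mean. In KO cells it was 20.7% for Il4i1, 22.6% for Irf4, 24.6% for Tmem26 and 24.4% for Hebp2. With each KO stiff library alone, the values were 18.8% and 22.6% for Il4i1, 22.0% and 23.3% for Irf4, 25.4% and 23.8% for Tmem26 and 27.2% and 21.7% for Hebp2. All of these lay between 18.8% and 27.2%, and the order of the 4 genes differed between the libraries.

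These percents lay in the middle of the genes that IL-4 raised. Over all 175 genes called higher with IL-4 in KO, the 4 included, the median was 23.3% and the quartiles were 19.97% and 27.0%. A higher percent than that of Il4i1 was found for 121 of the 175 genes, and for 97, 70 and 74 genes in the case of Irf4, Tmem26 and Hebp2. As both changes are taken from the same soft libraries, this is a description. The direct comparison without soft libraries gave a median of -1.0 on the log2 scale over the 175 genes, with quartiles of -1.31 and -0.79. All 4 genes, at -2.02 to -1.53, lay below the lower quartile. At a given percent this log2 difference is larger in size for a gene with a larger rise. The 4 genes rose 7.71-fold to 26.8-fold with IL-4 in KO.

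In WT cells the percents were 92.3% for Il4i1, 91.4% for Irf4, 118% for Tmem26 and 69.3% for Hebp2. Over the 178 genes called higher with IL-4 in WT the median was 87.0%, with quartiles of 64.5% and 118%. WT stiff 1 alone gave 79.1%, 80.8%, 140% and 59.5% for the 4 genes in the same order, and WT stiff 2 alone 105%, 102%, 95.2% and 79.2%. The spread over genes was wide in WT stiff 1, with quartiles of 32.2% and 137%, and narrow in WT stiff 2, with 86.8% and 104%.

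**Figure D4:**
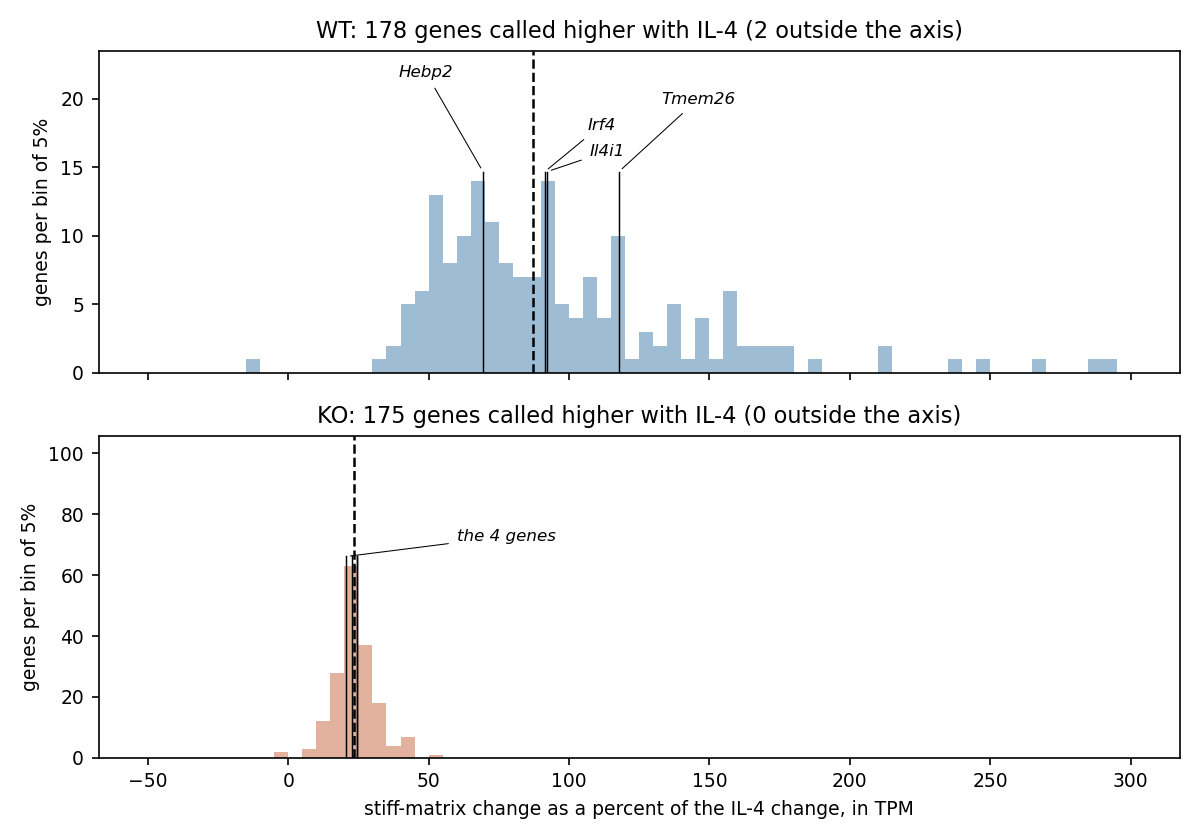
Change in stiff as a percent of the change with IL-4, in mean TPM, for genes called higher with IL-4 in WT (178 genes, above) and KO (175 genes, below). Bars count genes in bins of 5%, the dashed line is the median (87.0% in WT, 23.3% in KO) and thin lines mark the 4 genes. In WT 2 genes lie beyond the axis. The KO genes gather around the median, with the 4 genes between 20.7% and 24.6%.

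The pathway around the 4 genes was described with lists chosen with earlier results of these data known. Of 28 STAT6 target genes, other than the 4, 26 were tested. They were called higher in 21 cases in WT stiff, 20 in WT soft+IL-4 and 19 in KO soft+IL-4, and in 0 in KO stiff by limma (13 at an unadjusted p under 0.05), with none called lower in these comparisons. Their median log2 differences were 2.56, 2.61, 2.42 and 1.11, against all-gene medians of 0.02, -0.05, -0.05 and -0.01. In KO stiff against KO soft+IL-4, 10 were called lower, with a median of -1.38. Arg1, the arginase of M2 macrophages, had the largest KO stiff value of the list (3.10, not called), and Chil3, a chitinase-like secreted protein that has close copies and so is uncertain, had 2.70 (not called). With IL-4 in KO, the resistin-like Retnla rose by 4.69, while Arg1 was at 4.53, not called. The KO stiff values of the 4 genes lay within the range of these targets.

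**Figure D5:**
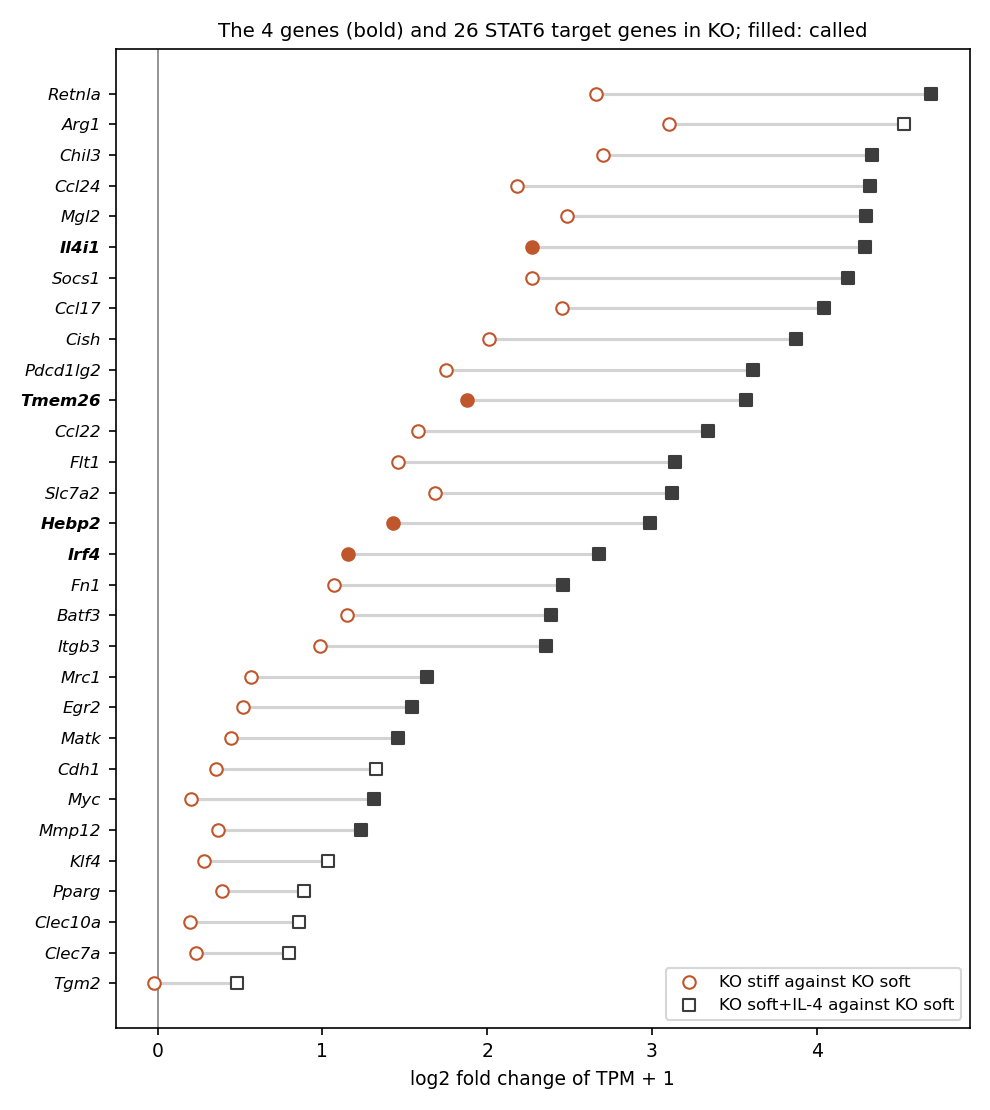
Log2 differences of the 4 genes (bold) and 26 other STAT6 target genes in KO cells, ordered by the value with IL-4. Circles are stiff against soft, squares soft+IL-4 against soft, and filled symbols were called. In stiff only the 4 genes are filled, at 1.15 to 2.27, which follows from their choice by that comparison. Open circles reach higher values, with Arg1 at 3.10.

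In the list of IL-4 signalling, 3 of 12 genes were called with IL-4 in each genotype, and 7 had an unadjusted limma p under 0.05 in WT stiff, in WT soft+IL-4 and in KO soft+IL-4. Of these genes, Socs1 and Cish, feedback inhibitors that STAT proteins induce, were called higher with IL-4 in KO (4.19 and 3.87) and lower in KO stiff than in KO soft+IL-4 (-1.92 and -1.86). In KO stiff they were at 2.27 and 2.01, not called. Il13ra1, a subunit of the type II IL-4 receptor, was called lower with IL-4 in KO (-1.33) and WT (-1.17), and higher in KO stiff than in KO soft+IL-4 (1.09). In WT stiff, Socs1 and Cish were called higher and the phosphatase gene Ptpn6 lower (-1.21), and in KO stiff limma called 0 of the 12 (2 at an unadjusted p under 0.05).

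Among the 7 other members of the IRF family tested, Irf7, a factor of the interferon response, was called lower in WT stiff (-2.90) and in WT soft+IL-4 (-2.08), and the other 6 were not called. In KO cells limma called 0 of the 7 (0 in stiff and 3 with IL-4 at an unadjusted p under 0.05), with Irf7 at -0.33 in stiff and -1.47 with IL-4. Irf8, the closest relative of Irf4, was at -0.10 and -0.56 in the same comparisons. Of 15 partners and regulators of Irf4, the AP-1 family factor Batf3 was called higher in WT stiff (1.97), WT soft+IL-4 (2.50) and KO soft+IL-4 (2.39), and was at 1.15 in KO stiff, not called. Nfatc2 was called lower in WT stiff (-1.17) and WT soft+IL-4 (-1.03), and Spi1, which codes for PU.1, was at -0.01 in KO stiff and -0.01 in KO soft+IL-4.

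The genes around the activities of Il4i1 and Hebp2 moved less. Of 19 genes of aromatic amino acid breakdown, 8 were tested and 0 were called by limma in any of these comparisons, with at most 1 in each at an unadjusted p under 0.05 and medians of 0.06 in KO stiff and 0.09 with IL-4 in KO. Kynu, a kynureninase, had the largest value with IL-4 (0.88), and Afmid, a formamidase, the largest in KO stiff (0.58). Of 6 tested genes of the aryl hydrocarbon receptor, which products of Il4i1 can bind, Cyp1b1 was called higher in WT stiff (1.71), WT soft+IL-4 (2.64) and KO soft+IL-4 (1.84) and was at 0.85 in KO stiff, while Ahr itself was called in WT stiff only (1.08). Of 18 tested genes of heme synthesis, binding and breakdown, 0 were called by limma, with 0 in KO stiff and 3 with IL-4 in KO at an unadjusted p under 0.05, and Hebp1, the nearest relative of Hebp2, was at -0.01 in KO stiff and -0.28 with IL-4 in KO.

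The genes whose levels followed the 4 most closely were found by Pearson's r of log2(TPM + 1) over the 12 libraries, as a description, since the libraries share their groups. They were Tfrc (r = 0.992), Apol7c (0.991) and Flrt2 (0.986) for Il4i1, Flrt2 (0.996), Tfrc (0.996) and Ap2m1 (0.993) for Irf4, Flt1 (0.997), Pdcd1lg2 (0.995) and Bhlhe40 (0.993) for Tmem26, and Ap2m1 (0.991), Plxdc2 (0.991) and Prps1 (0.990) for Hebp2. In KO stiff, only Tfrc among them was called. The mean Tfrc level in KO cells was 20.5 TPM on soft, 49.2 TPM on stiff and 149 TPM with IL-4, and the difference between genotypes in stiff against soft+IL-4 was called for Tfrc at -1.54. Flt1, a receptor of vascular endothelial growth factor, was at 2.51, 8.52 and 29.5 TPM in the same groups, and its difference between genotypes was called at -1.89.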

How the data were processed

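Poly-A RNA of 12 libraries was sequenced. The authors deposited TPM values for 14098 genes. The submitters' processing notes name Trim Galore 0.6.7, Salmon 1.4.0 and mm10, while the methods describe STAR and featureCounts, so how TPM was made is not settled. Depth is unknown and no counting error can be given. Groups were taken from the labels. The filter kept genes that reached 1 TPM in 2 or more libraries, and these were tested on log2(TPM + 1) with limma 3.58.1 (R 4.3.3), with a mean-variance trend, 1 mean per group over all 12 libraries and Benjamini-Hochberg adjustment in each comparison. With 2 libraries per group an exact permutation test could not reach 0.05. The code was tested on simulated data. Figures were drawn with matplotlib 3.10.9.

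The 4 genes, the lists and the tests were chosen with earlier results of these data known. Named are the 4 genes, Camkk2, the 3 nearest genes of each by r, per list up to 2 genes with the largest difference in KO stiff and 2 with IL-4 in KO, genes overlapping one of the 4, and markers as sums; the other list genes named, Mgl2, Pdcd1lg2 and Ptgs1 were chosen after their values were seen. Alternatives were a pseudocount of 0.1, no filter, median-of-ratios scaling, only the libraries compared, a replicate block, each library left out, the 3 libraries against their Camkk2 label left out, and each library number alone.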

Additional observations from a re-analysis of the deposited data

Results flagged for a closer look

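The change from soft+IL-4 to stiff differed between the genotypes for 3 of the 4 genes by the limma test of the difference itself, KO minus WT on the log2(TPM + 1) scale. The value was -1.90 for Il4i1, -1.42 for Irf4 and -1.89 for Tmem26, and all KO stiff libraries lay below all KO soft+IL-4 libraries, while the WT libraries of the same conditions overlapped. Of all genes tested, 57.6% did not overlap in KO and 29.3% in WT, and 0.125% were called lower for the difference between genotypes. The stiff libraries in this comparison had a part in choosing the genes, so the calls are not independent of that choice. None of the 3 calls remained without the 3 libraries that go against their Camkk2 label, and the direction did not change under any alternative run.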

How the results depend on the processing

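No value of the 4 genes in a called comparison changed direction under any alternative run. A pseudocount of 0.1 moved the median rise of the 4 genes from 3.21 to 3.75 in WT stiff and from 1.65 to 2.24 in KO stiff. Median-of-ratios scaling called 9 genes in KO stiff. With only the libraries compared in the model, limma called 0 genes in WT stiff against soft (1374 at an unadjusted p under 0.05), 1 in KO stiff, 286 in KO stiff against soft+IL-4, 19 between the genotypes with IL-4 and 26 for the difference between genotypes. Without the 3 libraries against their Camkk2 label, limma called 132 genes in WT stiff, 0 in KO stiff (70 at an unadjusted p under 0.05), 117 with IL-4 in WT, 182 with IL-4 in KO, 18 in KO stiff against soft+IL-4 (1 of the 4 genes) and 2 for the difference between genotypes (0 of the 4); this fit has 3 fewer libraries.

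Leaving out each library in turn gave a median rise of 3.03 to 3.26 in WT stiff and 1.58 to 1.72 in KO stiff. The numbers of genes called ran from 276 (without WT soft 2) to 1107 (without WT stiff 2) in WT stiff, 1 to 2 in KO stiff, 240 to 309 with IL-4 in WT, 241 to 325 with IL-4 in KO, 0 to 955 (without WT stiff 2) in WT stiff against soft+IL-4, 67 to 97 in KO stiff against soft+IL-4, and 12 (without WT soft+IL-4 1) to 850 (without WT stiff 2) for the difference between genotypes. Leaving out a library leaves 1 in its group, so only the direction is given here for the 4 genes. In each fit all 4 were higher with IL-4 than in soft in both genotypes, a comparison that uses the soft libraries of the choice. All 4 stayed lower in KO stiff than in KO soft+IL-4, and the difference between genotypes stayed negative for each. In WT stiff against soft+IL-4, Il4i1, Irf4 and Tmem26 changed direction without WT stiff 1. Which of the 4 were called for the difference between genotypes depended on the library left out.

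Deviations of libraries with the same number correlated at -0.0526 to 0.314 over 15 pairs of groups, and only KO soft with WT soft (0.314), KO soft with KO stiff (0.307) and KO stiff with WT soft (0.283) were above 0.1. These 3 groups hold the libraries against their Camkk2 label. As the other 12 pairs were under 0.1, the numbers were not taken to pair the samples. With the replicate block, 7 genes were called in KO stiff and 4 of the 4 in KO stiff against soft+IL-4. Depth is unknown, and Hebp2 below 1 TPM in soft is the least certain base of a rise.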

Other observations

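Genes that fell with IL-4 in KO showed a percent in stiff like that of the genes that rose. Over the 234 genes called lower with IL-4 in KO, the change in stiff was a median 24.5% of the change with IL-4 (quartiles 19.4% and 29.8%), against 23.3% over the 175 that were called higher. Within KO stiff 1 the medians were 28.6% and 24.2%, and within KO stiff 2 21.6% and 21.5%. The WT medians were 95.6% over 243 genes called lower and 87.0% over 178 called higher.

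Over the 134 genes called higher with IL-4 in both genotypes, the median log2 difference of stiff against soft+IL-4 was -1.05 in KO and -0.10 in WT. Of the 134, 51 were called lower in KO stiff than in KO soft+IL-4, and 14 were called lower for the difference between genotypes.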
